A study of Homo sapiens with 4 samples.

Results

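Actin cytoskeleton genes encode the subunits of actin filaments and the proteins that bind, cut, cross-link or pull on them. The 10 protein-coding genes described here were listed by name, with no threshold on a measured value, out of 20033 protein-coding genes on chromosomes 1 to 22, X and Y. They were the cytoplasmic actins ACTB and ACTG1, the monomer-binding or severing proteins PFN1, CFL1, TMSB10 and TMSB4X, the myosin light chains MYL6 and MYL12A, and the filament-binding proteins TPM1 and TAGLN2. RNA polymerase II (Pol II) was mapped by chromatin immunoprecipitation and sequencing (ChIP-seq) in SK-OV-3, an established human ovarian cancer cell line. The knockdown cells expressed a hairpin RNA that targets RRN3 (shRRN3), the control cells one that targets bacterial LacZ (shLacZ), and per the methods the hairpins were delivered by lentivirus with puromycin resistance to make stable lines. RRN3 is an initiation factor of RNA polymerase I, and the study asked what its loss does to Pol II transcription. Which RRN3 hairpin was used, and whether a line was 1 clone or a pool, was not given in the labels.

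Pol II starts at a promoter, often pauses just inside the gene, moves through the body, and keeps transcribing past the polyadenylation site before it leaves the DNA. ChIP-seq signal therefore tends to pile up near the start of an active gene and, in many highly transcribed genes, again just past the end. Housekeeping actin genes are among the most highly transcribed genes in many cultured cells, and several of them are classical targets of serum response factor (SRF), which binds the CArG box.

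Each hairpin was represented by 1 list of peaks from 1 library, so there was no replicate error and no test between the hairpins was possible. The shLacZ list held 4014 peaks with a median width of 304 bp, and the shRRN3 list held 14363 peaks with a median width of 432 bp. Neither list gives read counts, so the depth behind a peak cannot be read from them, and the longer and wider shRRN3 list gives any gene more chance of a peak. Each peak carried a score, which was used to rank it within its own list. In an alternative given below, the scores of both lists were also held to the same limit, 66.0. A score percentile of 90 means that 90% of the peaks of that list scored lower. The lists differ in length, and a longer list can shift a percentile by itself, so the percentiles of a gene in the 2 lists are given side by side and not compared. RRN3 itself had no peak at its start, in its body or in the 5 kb past its end in either list, which says nothing about the hairpin, since a hairpin acts on RNA. Of 10 markers listed for epithelial or ovarian carcinoma lines, PAX8 had a start peak in both lists and KRT8 and KRT18 in shRRN3, whereas the other 7, with EPCAM, WT1, MUC16 and ERBB2 among them, had none. These counts, 1 of 10 and 3 of 10, are near the shares over all protein-coding genes, 8.29% in shLacZ and 25.9% in shRRN3. Of 12 markers of fibroblast or muscle, leukocyte and endothelial cells, CD68 had a start peak in both lists and the other 11 had none.

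The promoters of the genes on which the contrasts below turn are shown first. They come from RefSeq (GRCh38.p14), which had 13 promoter entries for 9 of the 10 genes, ACTB having no entry. Each stretch lies between 150 bases before the annotated start and the start itself, on the gene's strand, and leaves out annotated exons. ACTG1 spans chr17:81512852-81512949, TMSB10 chr2:84905506-84905655, TMSB4X chrX:12974960-12975109 and PFN1 chr17:4948556-4948680, with ACTG1 and PFN1 on the minus strand. ACTG1 and TMSB10 carried the highest-scoring start or end peaks of the 10 genes in shLacZ, TMSB4X had 298 bp covered past its end in shLacZ and 1542 bp in shRRN3, and PFN1 had no start peak in either list. Capitals mark the CArG box (CC, 6 bases of A or T, GG), CCAAT and GGGCGG, on either strand, and the letters TATAAA were also searched.
ACTG1: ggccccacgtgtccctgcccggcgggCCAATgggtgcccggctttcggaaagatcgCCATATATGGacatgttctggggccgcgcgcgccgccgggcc
TMSB10: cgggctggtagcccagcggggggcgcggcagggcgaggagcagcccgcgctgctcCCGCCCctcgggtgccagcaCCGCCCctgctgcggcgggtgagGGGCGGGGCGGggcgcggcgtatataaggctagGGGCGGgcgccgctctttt
TMSB4X: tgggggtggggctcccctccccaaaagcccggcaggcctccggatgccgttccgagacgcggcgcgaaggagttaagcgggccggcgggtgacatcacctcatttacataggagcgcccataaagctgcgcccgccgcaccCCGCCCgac
PFN1: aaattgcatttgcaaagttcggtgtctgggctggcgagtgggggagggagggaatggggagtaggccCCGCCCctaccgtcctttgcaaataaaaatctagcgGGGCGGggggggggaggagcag

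Over the whole 300 bases of each RefSeq promoter window, a CArG box was found for ACTG1 alone among the 9 genes, as CCATATATGG beginning 94 bases before the start, and 1.29% of all 35116 promoters in the table held one. GGGCGG, the core of a GC box, was in 10 of the 13 windows and in at least 1 window of all 9 genes, against 45.0% of all promoters and 56.8% of those of protein-coding genes. CCAAT was in 4 of the 13 windows, against 34.6% of all promoters, and TATAAA in 0 of 13, against 11.5%. The PFN1 window, without a peak, had 2 GGGCGG matches and a GC content of 61.3%, close to the median of 62.3% over coding promoters. A match describes letters only, and no match says only that these letters are not in this window.

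Peaks were common at these genes in both lists. Any peak in the annotated gene or 5 kb around it was found for 9 of the 10 genes in shLacZ, where 14.5% of all protein-coding genes had one, and for 10 of 10 in shRRN3, where 39.0% had one. A peak within 1 kb of the start of the Ensembl canonical transcript, called a start peak, was found for 8 of 10 in shLacZ, against 8.29% of all genes, and for 8 of 10 in shRRN3, against 25.9%. They were the same 8 genes, all but PFN1 and TPM1, and 7.14% of all genes had a start peak in both lists. The count was 5 in each list with the bounds of the annotated gene span, which places the starts of ACTB, ACTG1 and CFL1 elsewhere. It was also 5 in each list without bases in other coding genes, which removes CFL1, TMSB10 and MYL6. No share over all genes was taken under these settings, so these counts cannot be set against 8.29% or 25.9%. A peak in the body, from 1 kb after the start to the end, was found for 4 of 10 genes, against 4.19% of all genes, in shLacZ and for 5 of 10, against 15.1%, in shRRN3. A peak in the 5 kb past the end was found for 5 of 10 genes in shLacZ, against 2.62%, and for 8 of 10 in shRRN3, against 8.69%. The 5 genes with such a peak in shLacZ, ACTB, ACTG1, TMSB10, TMSB4X and MYL12A, also had one in shRRN3, and 2.25% of all genes had one in both lists. With a window of 2 kb past the end the counts were 4 in shLacZ and 6 in shRRN3, with no share over all genes taken. With the annotated gene span they were 5 and 8, again with no share over all genes, but in shRRN3 TPM1 took the place of CFL1.

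Genes with a start peak in both lists are a closer comparison, since most genes in the genome had no peak at all. There were 1431 such genes, 8 of them listed here. Within this set the 5 kb past the end held a peak for 5 of the 8 in shLacZ, against 9.64% of the 1431, and for 7 of the 8 in shRRN3, against 27.0%. The exception in shRRN3 was TAGLN2.

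**Figure D1:**
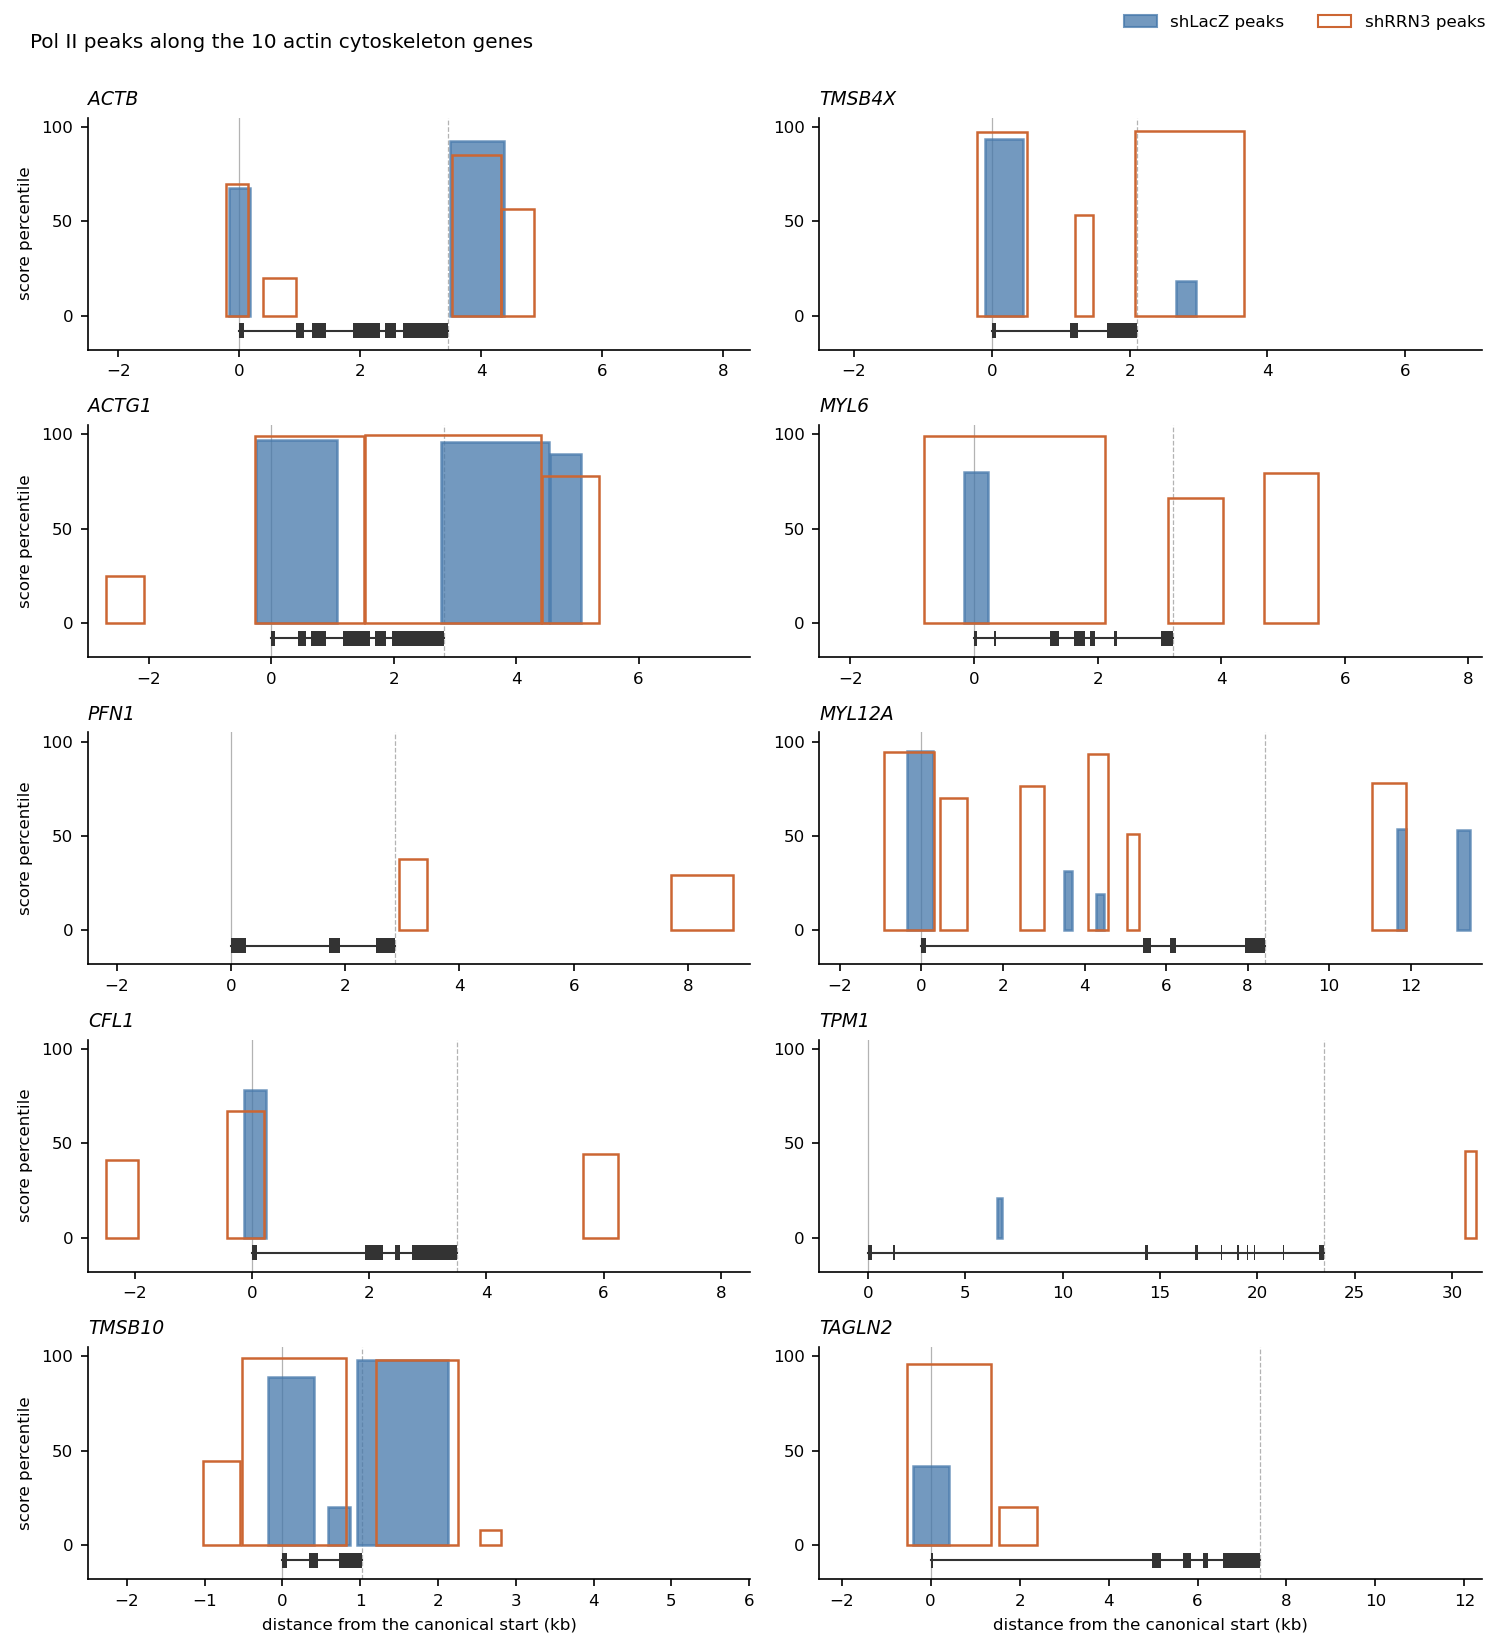
Pol II peaks along the 10 genes, drawn by distance from the canonical start in kb (x axis) and by score percentile within the list (y axis), with filled boxes for shLacZ and open boxes for shRRN3. Black boxes under each panel are exons, and grey lines mark the start (solid) and the end (dashed). ACTB, ACTG1 and TMSB10 carried a peak at the start and another at or just past the end in both lists, whereas PFN1 and TPM1 had none at the start.

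The cytoplasmic actins, which form the filaments of non-muscle cells, showed Pol II at both ends of the gene. ACTB lies on the minus strand of chromosome 7 (canonical transcript 5527148 to 5530601). Its start peak was 344 bp wide with a score percentile of 67.5 in shLacZ, and 356 bp wide at 69.7 in shRRN3. The peak past its end was stronger in rank than the start peak in both lists, with a percentile of 92.5 and a width of 887 bp in shLacZ, and 85.1 and 812 bp in shRRN3. In shLacZ that peak ran from 36 to 923 bp past the canonical end, and in shRRN3 from 62 to 874 bp. A second peak continued to 1426 bp in shRRN3. Covered bases past the canonical end were thus 887 bp in shLacZ, a value reached by 69 of the 20033 genes, and 1359 bp in shRRN3, reached by 258. The annotated span of ACTB ends farther out, at 5526409. Past that end 184 bp were covered in shLacZ and 682 bp in shRRN3, so much of this signal lies inside the annotated gene. The body of ACTB held no peak in either list, so the called peaks at its start and past its end were not joined. That does not show that Pol II was absent between them, since Pol II below the calling threshold gives no peak. A weak shRRN3 peak of 549 bp at percentile 20.1, lying from 396 to 945 bp after the start, overlapped no shLacZ peak.

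ACTG1, on the minus strand of chromosome 17 (81509971 to 81512799), had the widest coverage past the end of the 10 genes in both lists. Its start peak was 1313 bp wide at percentile 97.0 in shLacZ and 1784 bp wide at 99.1 in shRRN3. In shLacZ a separate peak of 1763 bp, percentile 95.7, began 53 bp before the end of the gene and reached 1710 bp past it, and another of 517 bp followed. In shRRN3 a peak of 2884 bp with a score of 1235.3, ranked 23 of 14363, ran from inside the body to 1584 bp past the end. Together the shRRN3 peaks covered 1819 of the 1829 bp of the body, or 99.5%, whereas the shLacZ peaks covered 125 bp, or 6.83%. Past the end the lists were closer, with 2227 bp in shLacZ, reached by 6 genes, and 2527 bp in shRRN3, reached by 54 genes. At the start, coverage was 1241 bp and 1265 bp. The lists thus differed in the body of ACTG1, and also upstream, where shRRN3 alone had a peak of 611 bp, at percentile 25.0, over the start of an unnamed long non-coding RNA on the opposite strand. The promoter stretch printed above lay inside the start peak in both lists.

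The monomer-binding genes differed widely among themselves. TMSB10 and TMSB4X encode beta-thymosins, small proteins that hold actin monomers in reserve. TMSB10, on the plus strand of chromosome 2 (84905656 to 84906671), is the shortest of the 10 genes at 1016 bp, so its body region is only 16 bp. Its start peak had a percentile of 89.2 in shLacZ (580 bp wide) and 98.9 in shRRN3 (1334 bp wide). Its end peak had a percentile of 98.1 in shLacZ and ran from 63 bp before the end to 1116 bp past it. In shRRN3 the end peak had a percentile of 98.0 and ran from 180 to 1242 bp past the end. Covered bases past the end were 1116 bp and 1339 bp. The end peak of TMSB10 thus stood near the top of each list, at rank 77 of 4014 and rank 290 of 14363. The gene lies within the span of TRABD2A, on the opposite strand. The canonical start of TRABD2A is far away, at 84881084, but transcripts of it with no defined coding sequence begin at 84907008, and that base lies inside the TMSB10 end peak in both lists. Peaks carry no strand, so the part of TRABD2A in this peak was not tested.

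TMSB4X, on the plus strand of chromosome X (12975110 to 12977223), had a start peak at percentile 93.6 in shLacZ (545 bp wide) and at 97.4 in shRRN3 (732 bp wide). The shLacZ peak past the end was 298 bp wide at percentile 18.6, lying from 554 to 852 bp past the end, and the shRRN3 peak was 1580 bp wide at percentile 97.8, lying from 38 bp before the end to 1542 bp past it. The shRRN3 peak contained the whole of the shLacZ one. A further shRRN3 peak of 266 bp in the body, percentile 53.2, overlapped no shLacZ peak.

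CFL1 encodes cofilin, which severs filaments, and PFN1 encodes profilin, which delivers monomers to growing ends. CFL1, on the minus strand of chromosome 11 (65854673 to 65858180), had a start peak of 380 bp at percentile 78.0 in shLacZ and of 625 bp at 67.2 in shRRN3. Its only peak past the end, of 608 bp at percentile 44.3 in shRRN3, began 2135 bp past the canonical end and lay in the neighbouring gene SNX32. That peak also lay inside the annotated span of CFL1. Past the end of that span 0 bp were covered, and 0 bp were left past the canonical end without bases in other coding genes. An upstream shRRN3 peak of 558 bp lay at the start of MUS81. PFN1, on the minus strand of chromosome 17 (4945652 to 4948530), had no peak in shLacZ in the gene or 5 kb around it. In shRRN3 it had a peak of 480 bp at percentile 37.8, from 68 to 548 bp past its end, which also overlapped the end of RNF167, the neighbour on the opposite strand. Another shRRN3 peak at the edge of the window lay at the starts of RNF167 and SLC25A11. None of the 3 annotated PFN1 starts lay in a peak, and neither list can tell Pol II below the calling threshold from none.

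The myosin light chains, which bind the neck of myosin II heavy chains and stabilise or regulate the motor, both had start peaks. MYL6 encodes the essential light chain and lies on the plus strand of chromosome 12 (56158359 to 56161579). Its start peak was 389 bp wide at percentile 79.8 in shLacZ and 2935 bp wide at 99.2 in shRRN3, the widest peak of all 10 genes. The shRRN3 peak ran from 808 bp before the start to 2127 bp after it and covered 1207 bp of the body, where shLacZ had no peak. Past the canonical end shLacZ covered 0 bp and shRRN3 1678 bp. The shRRN3 bases lay in a peak of 885 bp that began 80 bp before the end and another of 873 bp. Those 2 peaks reach into SMARCC2, which ends there on the opposite strand. The annotated span of MYL6 ends farther out, at 56163496, and past that end shRRN3 covered 433 bp. Without bases in other coding genes, 779 bp were left past the canonical end in shRRN3. The start lies in the span of MYL6B, another light chain gene on the same strand. The start peak also held the start of MYL6B-AS1, on the opposite strand, in both lists.

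MYL12A encodes a regulatory light chain and lies on the plus strand of chromosome 18 (3247801 to 3256236). Its start peak was 618 bp wide at percentile 95 in shLacZ and 1238 bp wide at 94.3 in shRRN3. In the body it had shLacZ peaks of 204 bp and 177 bp, at percentiles 31.7 and 19.4, and shRRN3 peaks of 587 bp, 509 bp and 285 bp, at 76.5, 93.5 and 51.1. Another shRRN3 peak of 653 bp at percentile 70.1 followed the start peak and reached into the body. The 509 bp peak contained the 177 bp one, and it also contained an internal RefSeq start of MYL12A that lies 4474 bp after the canonical start. The peaks past the end were not at the end. They began 3231 bp past it in shLacZ, with 518 bp covered, and 2609 bp past it in shRRN3, with 841 bp covered. They lay in MYL12-AS1, an antisense RNA, and the second shLacZ one lay within 1 kb of the start of the neighbouring light chain gene MYL12B.

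TPM1 and TAGLN2 bind along filaments. TPM1 encodes a tropomyosin and lies on the plus strand of chromosome 15 (63042747 to 63066178). At 23432 bp, TPM1 has the longest canonical transcript span of the 10 genes. Its 39 annotated transcripts begin at 34 distinct positions, and 0 of them lay in a peak of either list. The only shLacZ peak, 275 bp wide at percentile 21.2, lay over the start of TPM1-AS on the opposite strand. The only shRRN3 peak, 557 bp wide at percentile 45.7, began 7257 bp past the canonical end, outside the 5 kb region. TAGLN2 encodes transgelin-2 and lies on the minus strand of chromosome 1 (159918111 to 159925507). Its start peak was 807 bp wide at percentile 41.9 in shLacZ and 1890 bp wide at 95.7 in shRRN3. A second shRRN3 peak of 862 bp, percentile 20.2, lay over an internal start. Both shRRN3 peaks together held all 5 annotated TAGLN2 starts, and the shLacZ peak held 3. TAGLN2 had no peak past its end in either list.

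**Figure D2:**
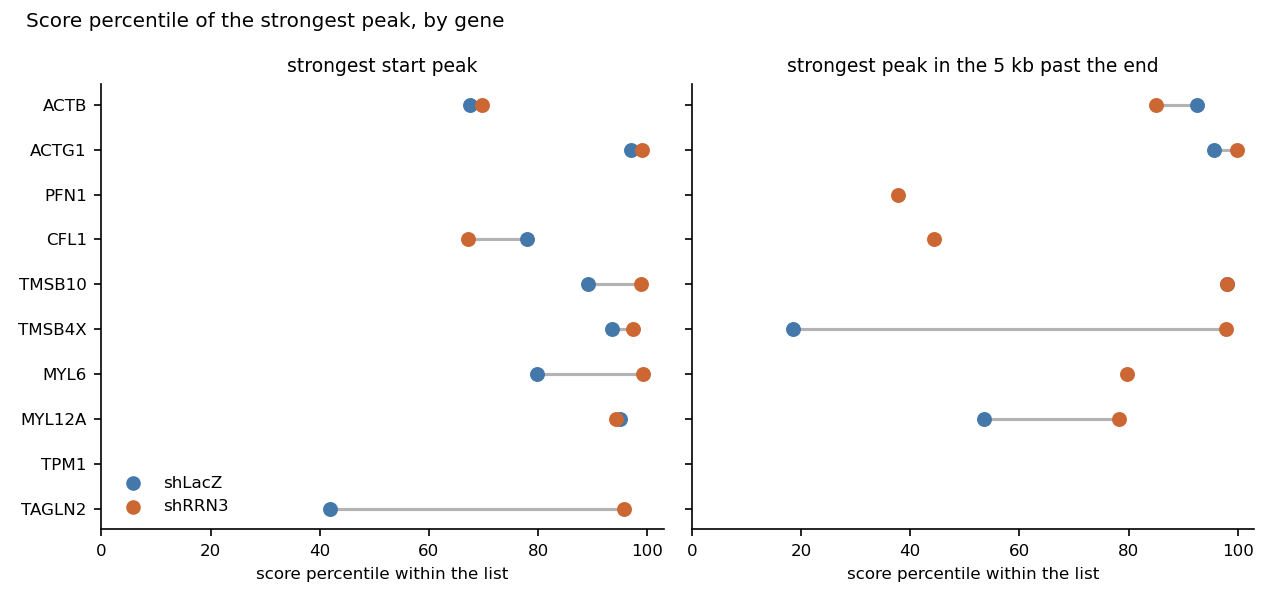
Score percentile within the list (x axis) of the strongest peak at the start (left) and in the 5 kb past the end (right) for each gene (y axis), with 1 point per list and a line joining genes found in both. The TAGLN2 start peak stands at 41.9 in shLacZ and 95.7 in shRRN3, the TMSB4X peak past the end at 18.6 and 97.8, and the TMSB10 end points, at 98.1 and 98.0, lie on top of each other. The lists differ in length, so a line is no measure of change.

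Summed over the 10 genes, covered bases could be set beside those over all genes, which also carry the greater length of the shRRN3 list. Within 1 kb of the start, peaks covered 5230 of 20000 bp in shLacZ (26.1%) and 10434 bp in shRRN3 (52.2%), a ratio of 2.00. The same ratio was 4.32 over all protein-coding genes and 1.58 over the 1431 genes with a start peak in both lists. In the body they covered 797 bp of 48286 bp (1.65%) in shLacZ and 6048 bp (12.5%) in shRRN3, a ratio of 7.59, against 7.0 over all genes and 6.07 over the 1431. In the 5 kb past the end they covered 5046 of 50000 bp (10.1%) in shLacZ and 10543 bp (21.1%) in shRRN3, a ratio of 2.09, against 4.96 and 4.18. These are ratios of sums over peaks called separately in each list. The body ratio rests on few bases in shLacZ and was 3.34 with the annotated gene span and 36.8 when peaks had to reach a score of 66.0, the shLacZ median, where 141 bp were left in shLacZ. The ratio past the end was lower than that of either comparison set, a difference that was not tested. From 1 to 5 kb before the start, shLacZ peaks covered 0 bp and shRRN3 peaks 1187 bp.

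**Figure D3:**
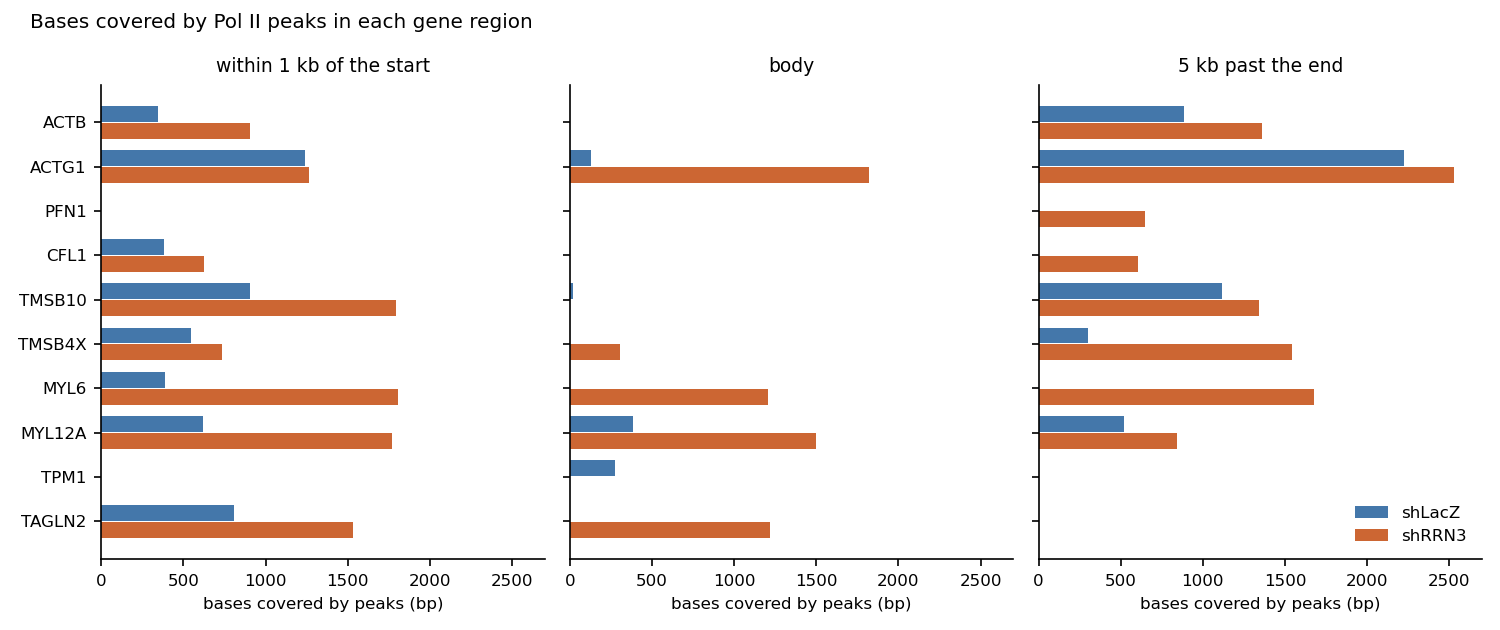
Bases covered by Pol II peaks (x axis, bp) for each gene (y axis) within 1 kb of the start, in the body and in the 5 kb past the end, with 1 bar per list. ACTG1 had 125 bp of its body covered in shLacZ and 1819 bp in shRRN3, and PFN1 and TPM1 have no bar at the start.

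The balance between the end and the start was set beside that of other genes with Pol II at the start, with no test. Bases covered past the end came to 0.965 times those covered at the start in shLacZ and 1.01 times in shRRN3. Over the 1431 genes with a start peak in both lists the values were 0.121 and 0.319, and over all genes 0.324 and 0.372. The value for the 10 genes was thus near 1 in both lists with these windows, while that of the 1431 genes differed between them. It is a ratio of sums and not a trait of each gene. ACTG1 gave 2227 of the 5046 bp past the end in shLacZ, and MYL6 gave 0 bp in shLacZ and 1678 bp in shRRN3. Past the end of the annotated span of MYL6 the shRRN3 value was 433 bp. Without bases in other coding genes, 4605 bp past the end stood against 3555 bp at the start in shLacZ, and 8591 bp against 6208 bp in shRRN3.

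The position of the signal past the end varied from gene to gene. Among all genes with a peak in the 5 kb past the end, the first covered base lay at a median of 1521.0 bp past the end in shLacZ (524 genes) and 1364.0 bp in shRRN3 (1741 genes). It lay within 200 bp of the end for 18.9% and 21.6% of them. In shLacZ it lay within 200 bp for ACTB, ACTG1 and TMSB10, at 554 bp for TMSB4X and at 3231 bp for MYL12A. In shRRN3 it lay within 200 bp for ACTB, ACTG1, PFN1, TMSB10, TMSB4X and MYL6, and farther out for CFL1 and MYL12A. By position, read every 50 bp, coverage past the end was most frequent from 600 to 850 bp past it in shLacZ, where 4 of the 10 genes were covered, and from 200 to 500 bp in shRRN3, where 6 were. The most that the 1423 other genes with a start peak in both lists reached past the end was 2.81% in shLacZ and 10.2% in shRRN3. The polyadenylation hexamer AATAAA lay in the last 40 bases of the canonical transcript for 8 of the 10 genes, against 62.2% of all protein-coding genes. MYL12A had ATTAAA instead, and CFL1 had neither.

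**Figure D4:**
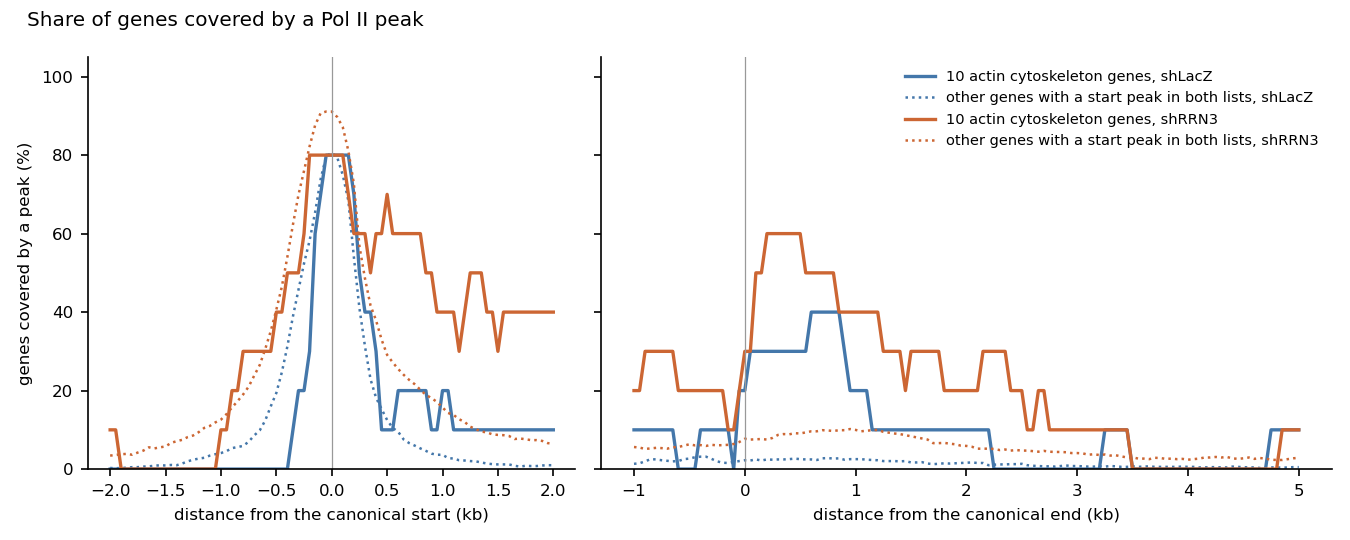
Share of genes covered by a peak (y axis, %) by distance in kb from the canonical start (left) and end (right), with solid lines for the 10 genes and dotted lines for the 1423 other genes with a start peak in both lists. At the start the solid lines reach 80.0% in both lists, against at most 80.6% in shLacZ and 91.1% in shRRN3 for the dotted lines. The 10 genes include PFN1 and TPM1, which had no start peak. Past the end the solid lines reach 40% in shLacZ and 60% in shRRN3, against at most 2.81% and 10.2% for the dotted lines.

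The overlap between the lists was taken as a share of each list. Of the 19 shLacZ peaks in the 10 gene windows, 16 shared at least 1 bp with one of shRRN3, or 84.2% (exact 95% Clopper-Pearson interval 60.4% to 96.6%), against 66.2% of all shLacZ peaks. In shRRN3, 16 of the 32 peaks met one of shLacZ, or 50% (31.9% to 68.1%), against 16.9% of all shRRN3 peaks. When the peaks had to share 50% of both, the shares for these genes were 42.1% in shLacZ and 25% in shRRN3. With a shRRN3 list as short as that of shLacZ the shRRN3 share was 86.7% (13 of 15 peaks). No share over all peaks was taken under these settings, so these values cannot be set against 66.2% or 16.9%. The intervals cover counting error only and treat neighbouring peaks as independent. The 3 unmatched shLacZ peaks were the 204 bp body peak and the outermost peak of MYL12A and the TPM1 peak over TPM1-AS. Median width was 389.0 bp for the 19 and 692.5 bp for the 32 peaks. The 10 start peaks in shLacZ had a median score percentile of 84.5 and the 11 in shRRN3 one of 94.3. The TMSB10 end peak in shLacZ counted in both regions because it begins within 1 kb of the start. By peak midpoint the shLacZ start median was 79.8. Peaks past the end had medians of 89.5 in shLacZ (7 peaks) and 77.7 in shRRN3 (13 peaks). No such medians were taken over the start or end peaks of all genes, so these values do not set the 10 genes apart.

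A shorter shRRN3 list, made of the 3920 peaks with the best scores to match the length of shLacZ on the primary chromosomes, gave start peaks for 6 of the 10 genes, against 10.8% of all genes. ACTB and CFL1 were the genes that lost theirs. In that reduced list 5 genes had a body peak, against 4.75% of all genes, and 6 had a peak past the end, against 3.52%. The latter were the 5 genes of shLacZ plus MYL6. The 5 genes with a body peak were ACTG1, TMSB4X, MYL6, MYL12A and TAGLN2, as in the full shRRN3 list.

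The wider actin machinery was read from 60 further genes in 7 groups. A start peak was found for 17 of them (28.3%) in shLacZ and for 35 (58.3%) in shRRN3, against 8.29% and 25.9% of all genes, and 13 had one in both. The ARP2/3 complex, which nucleates branched filaments, had 4 of 9 genes with a start peak in shLacZ and 8 of 9 in shRRN3. ARPC4 ranked highest in this complex, at percentiles 95.3 and 96.6. ACTR2 and ACTR3, its actin-related subunits, stood at 38.1 and 44.8 in shLacZ and at 92.6 and 90.3 in shRRN3. All 5 capping genes, whose proteins close filament ends, lacked a start peak in shLacZ, and 3 had one in shRRN3. The cross-linking and filament-binding group had 6 and 10 of 19, with the tropomyosin TPM2 at percentile 34.5 in shLacZ and 92.7 in shRRN3. EZR, which ties filaments to the plasma membrane, stood at 98.2 and 94.5, although its shLacZ peak reached only 23 bp into the start window.

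Among the myosin II genes 2 of 6 had a start peak in each list, with MYL12B at percentile 89.9 in shLacZ and 94.4 in shRRN3. The heavy chain gene MYH9 had one in shLacZ alone, at percentile 48.7. Of the nucleators and elongators, 2 of 10 and 6 of 10 had one, and WASF2, an activator of ARP2/3, stood at 88.0 and 98.2. The remaining monomer-binding genes had 3 of 8 and 6 of 8, with CAP1 at percentile 94.7 in shRRN3 and no start peak in shLacZ. SRF and its cofactors MRTFA and MRTFB had no start peak in either list. Past the end, 3 of the 60 genes had a peak in shLacZ and 12 in shRRN3, against 2.62% and 8.69% of all genes. For MYL6B, counted in both lists, the 389 bp covered in shLacZ are the start peak of MYL6. The 3388 bp covered past MYL6B in shRRN3 also fall in peaks recorded for MYL6, its 2935 bp start peak among them.

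**Figure D5:**
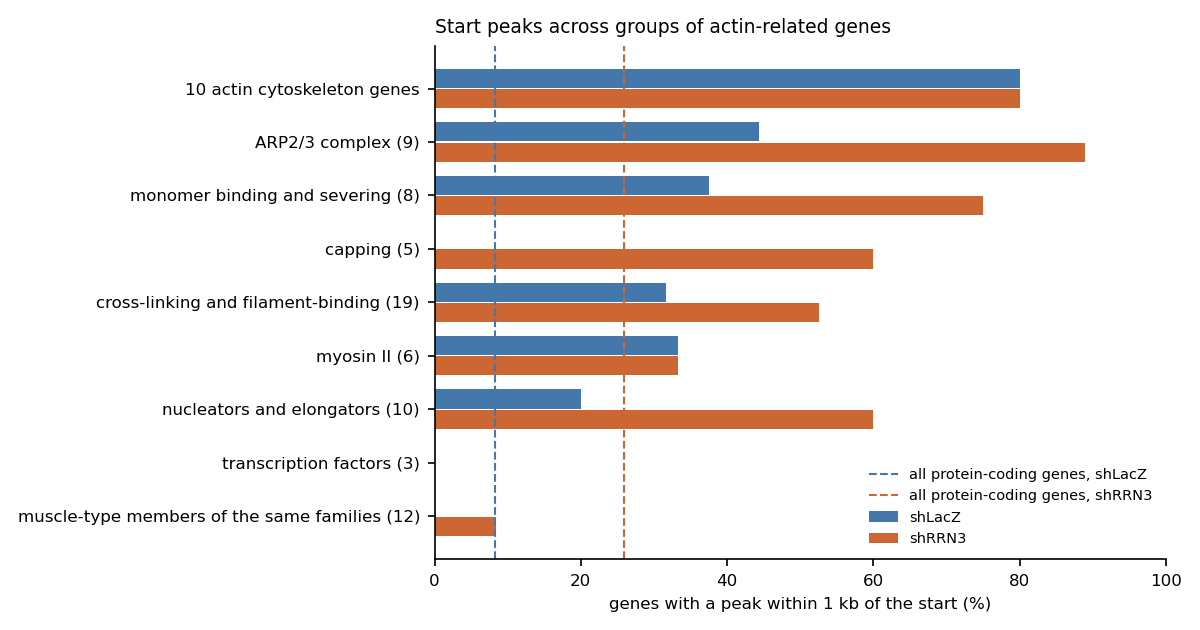
Share of genes with a peak within 1 kb of the start (x axis, %) in the 10 genes and in groups of actin-related genes (y axis, number of genes in brackets), with 1 bar per list and dashed lines for all protein-coding genes, at 8.29% in shLacZ and 25.9% in shRRN3. The 10 genes stand at 80.0% in both lists, and the muscle-type relatives at 0 in shLacZ and 8.33% in shRRN3.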

How the data were processed

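The samples were 1 Pol II ChIP-seq library and 1 input library per hairpin in SK-OV-3 cells. The authors deposited 1 peak list per Pol II library, called separately, with coordinates, a name carrying the word MACS, and a score. The lowest deposited score was 50.03 in shLacZ and 50.0 in shRRN3, the highest in shRRN3 was 3100.0, and the scale is not stated. The submitters' processing notes name the build hg38. The aligner, caller version, threshold, duplicate handling and use of the input were not given in the sources used here, and they set how many peaks are called and how wide they are. The input libraries were not analysed here. The lists do not give the depth, and depth from other sources was left out.

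Genes came from GENCODE release 44, with the bounds of the Ensembl canonical transcript. The annotated span, used as an alternative, is 37494 bp for ACTB and 39005 bp for CFL1. The start was 1 kb on either side of the canonical start, the body ran from there to the end, and the 5 kb past the end followed. A peak counted in a region that it overlapped by at least 1 bp. Covered bases are the union of peaks. No test was run between lists of 1 library each. Intervals are exact 95% Clopper-Pearson intervals. Motifs were searched on both strands. The region code was tested on simulated data, where all 3 regions were recovered exactly in 280 genes. Scripts ran in Python 3.11.15 with pandas 2.3.3 and numpy 2.4.6, intervals came from scipy 1.17.1, and figures from matplotlib 3.10.9.

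The genes and lists were chosen with earlier results of these data known. The named genes were the 10 listed genes, protein-coding neighbours within 5 kb, and genes of the wider lists with a start peak in the top 10% of scores or in 1 list alone. The antisense RNAs and, among the wider lists, the examples named were chosen after their values were seen. A group of the wider lists is not reported here. The alternatives were a stricter score, a reduced shRRN3 list, the annotated gene span, assignment by peak midpoint, removal of bases in other coding genes, other window sizes and a stricter overlap.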

Additional observations from a re-analysis of the deposited data

How the results depend on the processing

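No paired analysis was possible because each hairpin had 1 library, and no replicate could be left out. Of 102 alternative values over the 10 genes, 85 stayed within the limits set (1.5 times for counts and covered bases) and 17 moved. The limits for shares, medians and ratios are not stated here. A reversal was possible only for the ratios of shRRN3 to shLacZ, and 0 reversed. The 85 include shLacZ counts and covered bases under the reduced shRRN3 list, which could not change, so the 85 are no full measure of stability. Of 280 alternative values for single genes, 230 stayed and 50 moved. The 230 also hold values that could not change and values of 0 bp that stayed at 0 bp, as for PFN1 in shLacZ, so they are no measure of stability. With the annotated gene span, start peaks were found for 5 genes in each list, start coverage in shLacZ was 3265 bp, and bodies had 4023 bp (shLacZ) and 13437 bp (shRRN3) covered, a ratio of 3.34. Without bases in other coding genes, start peaks were found for 5 genes in shLacZ and 5 in shRRN3, with 6208 bp covered at starts in shRRN3. At the stricter score, 2 genes had a body peak in shLacZ, with 141 bp covered and a body ratio of 36.8. By peak midpoint, body peaks were found for 2 genes in shLacZ and 3 in shRRN3. No share over all genes was taken beside these alternative counts. Requiring 50% of both peaks gave overlapped shares of 42.1% in shLacZ and 25.0% in shRRN3. The reduced shRRN3 list gave 86.7% for its own peaks, and no share over all peaks was taken for these values. Body counts and ratios thus rest on few bases in shLacZ. Depth, which the lists do not give, and the unstated calling threshold limit every statement about a missing peak.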

Other observations

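The muscle-type relatives of these genes, which build the contractile apparatus of skeletal, cardiac and smooth muscle, had few start peaks. Of 12 such genes, which included the muscle actins ACTA1, ACTA2, ACTC1 and ACTG2, 0 had a start peak in shLacZ and 1 in shRRN3, against 8.29% and 25.9% of all protein-coding genes, and with 12 genes these counts are not far from those shares. The gene was CFL2, the muscle cofilin, with a start peak at score percentile 28.8 in shRRN3.

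The genome holds many processed copies of actin cytoskeleton genes, which share sequence with the parent gene. Of 66 annotated pseudogene copies of the 10 genes, 21 of them of ACTG1 and 12 of ACTB, 0 held a peak in shLacZ and 0 in shRRN3. Peaks were rare over all 15233 annotated pseudogenes too, at 0.282% in shLacZ and 0.834% in shRRN3, so a count of 0 of 66 does not set these copies apart. How reads shared between copies were counted was not given in the sources used here.

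Of the 60 genes in the wider lists, those whose start peak was found in shLacZ alone were GSN, RDX, MYH9 and WASL, with score percentiles of 12.7, 11.7, 48.7 and 11.2. FLNA, which cross-links filaments, had no start peak in either list but had 711 bp of its body covered in shLacZ and 1796 bp in shRRN3, and 492 bp and 746 bp past its end. FLNA was chosen after its values were seen.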
